A study of Mus musculus with 10 samples.

Results

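The genes described here belong to the unfolded protein response and the integrated stress response. They are 34 genes taken from a fixed list of symbols and matched by Ensembl identifier to the 55471 genes in the tables. All 34 were found in GENCODE M21 (Ddit3 had a pair of models, of which the longer was used), and all 34 passed the filter on low counts. They were read in primary microglia, macrophages that live in the brain, from wild-type mice, kept in DMEM with serum and antibiotics. The control group (5 libraries) had received control gapmers and the other group (5 libraries) gapmers against the long noncoding RNA 3222401L13Rik. Gapmers are antisense oligonucleotides that recruit RNase H to the RNA they pair with. Genotype, source and culture were shared by both groups, and the labels give neither the dose or time of treatment, nor the age of the mice, nor whether the replicates were separate cultures or mice. Every p-value below therefore measures the spread between these libraries, which may be technical.

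Totals ran from 4321316 to 5639040 reads in the control libraries and from 5593627 to 6636082 in the libraries labelled knockdown. The targeted RNA did not separate the labels: 3222401L13Rik had 30.8 ± 2.59 reads in the control libraries and 29.2 ± 6.53 in those labelled knockdown (SD, n = 5 each), and its log2 fold change was -0.17 (SE 0.23, adjusted p = 0.541 in edgeR's quasi-likelihood fit, with Benjamini-Hochberg adjustment). Directions below are those of the libraries labelled knockdown. Reads over 1135 olfactory receptor genes, which microglia are not known to use, served as a measure of background. They amounted to 0.599 ± 0.147 reads per kilobase of exon, relative to depth (RPKM), in the control libraries and to 0.257 ± 0.0674 in those labelled knockdown (SD, n = 5 each). The exact permutation test, two-sided, gave p = 0.00794, which 5 against 5 libraries cannot go below. Single libraries ran from 0.425 to 0.816 and from 0.188 to 0.343, so the label and this density cannot be told apart. The share of a gene's reads that the density predicts from its exon length is called its background share. It is an estimate, and it can predict more reads than a gene has (Hspb1, 214%). For 3222401L13Rik it was 48%, so these few reads cannot settle whether the targeted RNA was lowered. Of 12 microglial markers 10 rose, and their summed level was 3024 to 3639.9 CPM (TMM-scaled counts relative to depth) in the control libraries and 3700.4 to 4292 CPM in those labelled knockdown. The median background share of these markers was 0.494%. Where that share was below 5%, a rise was called for 75.5% of genes, whatever their cell type. Of 8 tested neuronal markers (of 9 listed) 8 fell (summed level 53.6 to 86.9 against 26.2 to 43.3 CPM, median background share 50.3%), and 6 of 6 tested fibroblast and mural markers (of 7) fell (35.7 to 50.9 against 17.6 to 31.2 CPM, median share 65.8%). All tested markers of these lists had a share above 20%. In that range a fall was called for 62.6% of genes, again whatever their cell type. Endothelial markers had 1 rise and 3 falls among 4 tested (of 5), at 146 to 163 against 146 to 157 CPM, and oligodendrocyte markers 0 and 2 among 7 tested (of 8). The 8 astrocyte markers went both ways, with Gfap and Aqp4 higher and Slc1a2 and Slc1a3 lower, and their sums overlapped (164 to 184 against 158 to 192 CPM). No marker was at 0 reads in every library, and the part of these markers in the results was not tested. In bulk RNA, fewer cells of a type and less RNA per cell cannot be told apart, and whether either occurred was not tested.

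Proteins that enter the endoplasmic reticulum (ER) are folded there by chaperones, and the cell senses an excess of unfolded chains through a trio of membrane proteins. PERK (Eif2ak3) phosphorylates the translation factor eIF2, which slows most translation while the transcription factor ATF4 is made. IRE1 (Ern1) splices the Xbp1 messenger RNA into a form that encodes an active transcription factor, and ATF6 is cut in the Golgi to release one. ATF6 and XBP1 are known to raise ER chaperones and degradation factors, while ATF4, which GCN2 (Eif2ak4) also drives when amino acids are short, is known to raise amino acid enzymes and CHOP (Ddit3). Gene counts hold neither eIF2 phosphorylation, nor ATF6 cleavage, nor the spliced share of Xbp1.

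The promoters of these genes are shown first, since the branches are read through short motifs in them. RefSeq windows on GRCm38.p6, from 250 bases before a start to 50 after it, were found for 29 of the 34 genes, and motif letters were searched on both strands in 32817 windows. The ER stress element (ERSE, bound by ATF6 with NF-Y) was searched as CCAAT, any 9 bases and CCACG. It lay in the windows of 6 of the 29 genes and in 0.119% of all windows. Its variant ERSE-II, searched as ATTGG, any 1 base and CCACG, lay in 2 of the 29 and in 0.0366% of all windows. The C/EBP-ATF response element (CARE, bound by ATF4), searched as TGATGNAA, lay in 4 of the 29 and in 3.97% of all windows. The unfolded protein response element TGACGTGG lay in 0 of the 29 and in 0.676% of all windows. A heat shock element, searched as GAA, any 2 bases, TTC, any 2 bases and GAA, lay in 1 of the 29 (Hsph1, after its start) and in 0.603% of all windows. No window was found for Hyou1, Manf, Atf6, Hspa8 and Hsp90aa1, so Hsph1 was the only cytosolic chaperone gene among the 29. The letters of ERSE, ERSE-II and the unfolded protein response element all hold CCACG or its reverse complement, but no 2 matches in the members' windows overlapped. A match is a run of letters and not a measured site, and a window without one says nothing of the factor.

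Below are the 250 bases before the RefSeq start of Hspa5 (chr2:34771840-34772089, plus strand), Hsp90b1 (chr10:86705445-86705694, minus strand) and Canx (chr11:50325674-50325923, minus strand), the 3 genes with the highest levels of all 34, and of Herpud1 (chr8:94386179-94386428, plus strand) and Asns (chr6:7693210-7693459, minus strand), which were not called. All are read 5′ to 3′ on the gene's strand, and capitals mark the fixed letters of a motif, ERSE in the first 3, ERSE-II and CARE in Herpud1, and CARE in Asns. The GENCODE M21 models of Hspa5, Hsp90b1 and Asns begin before the RefSeq starts, inside the stretches shown.
Hspa5: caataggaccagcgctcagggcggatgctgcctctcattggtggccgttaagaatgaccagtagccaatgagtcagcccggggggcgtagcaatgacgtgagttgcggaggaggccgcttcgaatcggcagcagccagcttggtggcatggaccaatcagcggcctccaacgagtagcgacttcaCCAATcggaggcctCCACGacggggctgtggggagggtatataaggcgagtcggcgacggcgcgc
Hsp90b1: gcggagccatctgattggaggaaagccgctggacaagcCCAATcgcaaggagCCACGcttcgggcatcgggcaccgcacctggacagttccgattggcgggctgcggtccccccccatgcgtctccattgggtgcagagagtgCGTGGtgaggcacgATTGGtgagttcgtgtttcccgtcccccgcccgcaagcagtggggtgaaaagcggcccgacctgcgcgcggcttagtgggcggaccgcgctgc
Canx: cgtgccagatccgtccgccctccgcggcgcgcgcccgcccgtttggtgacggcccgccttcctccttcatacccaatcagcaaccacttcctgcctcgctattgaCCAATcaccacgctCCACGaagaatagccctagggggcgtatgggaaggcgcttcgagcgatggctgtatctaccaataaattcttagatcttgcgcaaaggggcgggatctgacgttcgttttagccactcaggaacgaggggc
Herpud1: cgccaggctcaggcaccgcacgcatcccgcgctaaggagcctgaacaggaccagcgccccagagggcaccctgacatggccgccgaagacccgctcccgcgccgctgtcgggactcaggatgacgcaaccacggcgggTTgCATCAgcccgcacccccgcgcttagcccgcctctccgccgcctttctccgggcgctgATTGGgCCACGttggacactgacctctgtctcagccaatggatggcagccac
Asns: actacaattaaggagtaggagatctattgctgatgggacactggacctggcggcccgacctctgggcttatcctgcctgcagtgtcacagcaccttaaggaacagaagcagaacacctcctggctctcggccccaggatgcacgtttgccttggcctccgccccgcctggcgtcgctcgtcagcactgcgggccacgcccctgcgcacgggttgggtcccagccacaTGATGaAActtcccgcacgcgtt

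The ERSE sites themselves, written on the strand of the motif with the 9 free bases in lower case, shared their ends and differed between. The site of Hspa5 begins 65 bases before the start, and Hsp90b1 holds a pair in opposite orientation, 212 and 107 bases before its start. Those of Canx, Pdia6, Dnajc3 and Creld2 begin 145, 98, 105 and 126 bases before theirs, that of Creld2 on the opposite strand.
Hspa5: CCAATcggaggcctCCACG
Hsp90b1, first: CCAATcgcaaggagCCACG
Hsp90b1, second: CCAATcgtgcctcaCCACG
Canx: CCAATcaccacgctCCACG
Pdia6: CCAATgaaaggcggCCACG
Dnajc3: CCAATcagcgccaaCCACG
Creld2: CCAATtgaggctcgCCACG

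The response genes were present at very different levels in the control libraries, given here in RPKM, which allows genes to be compared. The ER chaperone GRP94 (Hsp90b1) stood highest at 218 ± 13.3 RPKM, apart from the next gene, the lectin chaperone calnexin (Canx, 159 ± 15.9 RPKM). Canx and the master chaperone BiP (Hspa5, 135 ± 11.1 RPKM) did not differ beyond their SDs, nor did the disulfide isomerase gene Pdia4 (80.1 ± 7.91) and Atf4 (74.4 ± 4.36). Edem1 (53.1 ± 3.13), a lectin that hands misfolded glycoproteins to degradation, stood apart from both neighbours. Each gene from Ddit3 (35.2 ± 2.80) down to Sel1l (25.2 ± 1.33) overlapped the next within 1 SD, as did each from Creld2 (17.6 ± 2.66) down to Ern1 (7.69 ± 0.471), and Xbp1 (21.3 ± 1.00) lay apart between these runs. The sensor genes were low, with Atf6 at 11.1 ± 0.751, Ern1 at 7.69 ± 0.471 and Eif2ak3 at 6.40 ± 0.627 RPKM. At the bottom were Trib3 (3.32 ± 0.220), a pseudokinase that dampens ATF4 signalling, and, not apart from each other, Chac1 (2.30 ± 0.616), which degrades glutathione, and the serine synthesis gene Phgdh (1.63 ± 0.280; SD, n = 5 for all).

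**Figure D1:**
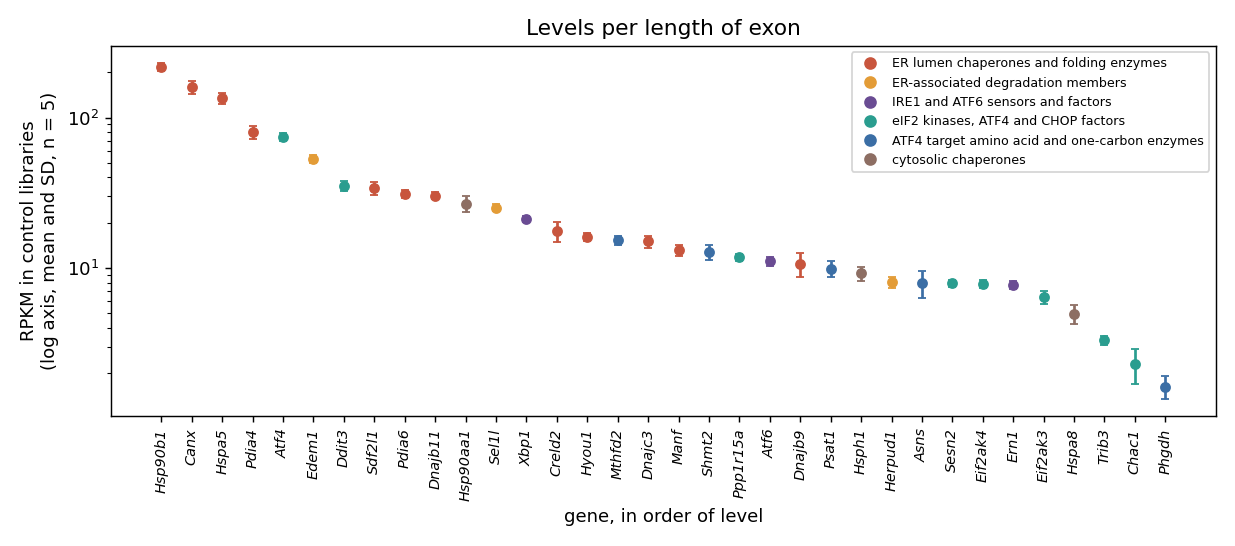
Level of each of the 34 genes in the control libraries, in RPKM on a log axis, in order of level; points are means and bars SDs over 5 libraries, coloured by role. ER chaperones hold the top 4 places, and Trib3, Chac1 and Phgdh the last 3.

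For 3 genes the level is less certain, because much of their sequence recurs elsewhere. Of the 50-base stretches of the longest transcript of Phgdh, 63.1% also lay in transcripts of 23 other genes. The same held for 58.5% of Hsp90aa1 (4 other genes) and 52.7% of Hspa8 (15 other genes), against 10.0% or less for each of the other 31 genes. Whether reads with more than 1 match were counted is not given in the sources used here, and these levels may be too low. Hspa8, the constitutive cytosolic HSC70, was at 4.94 ± 0.725 RPKM, below its partner gene Hsph1 at 9.21 ± 0.974 RPKM (SD, n = 5 each). Exons of other annotated genes overlapped up to 10.3% of the exon bases of any 1 of the 34 genes, the highest being Hsp90b1 with a pseudogene on the other strand. A second gene model named Ddit3, nested in the first, had 0 reads in all 10 libraries.

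The comparison asked whether stress response genes differed with the gapmer against 3222401L13Rik. With TMM scaling over all tested genes, 23 of the 34 rose, 1 fell and 10 were not called (edgeR quasi-likelihood test, adjusted p under 0.05 over 19263 genes), and the median of their log2 fold changes was 0.20. Over all tested genes 22.9% rose and 31.3% fell, with a median of -0.10. The 23 genes that rose all had a background share under 5%. Of the 26 members under that share 23 rose and 0 fell, and the median of their log2 fold changes was 0.25. Among all 4728 tested genes under it, 75.5% rose and 0.486% fell, with a median of 0.24. Of the 7 members with a share of 5 to 20%, 0 rose and 0 fell, while 15.2% of all such genes rose and 6.48% fell. The 1 member above 20%, Phgdh, fell, as did 62.6% of all such genes. In 14 of the 34 genes the 2 groups of libraries did not overlap, all 14 higher and all with a share under 5%, where 44.5% of all genes were separated in that direction (12.6% of all tested genes). The 88.5% of members that rose under a 5% share thus stood beside 75.5% of all genes there.

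**Figure D2:**
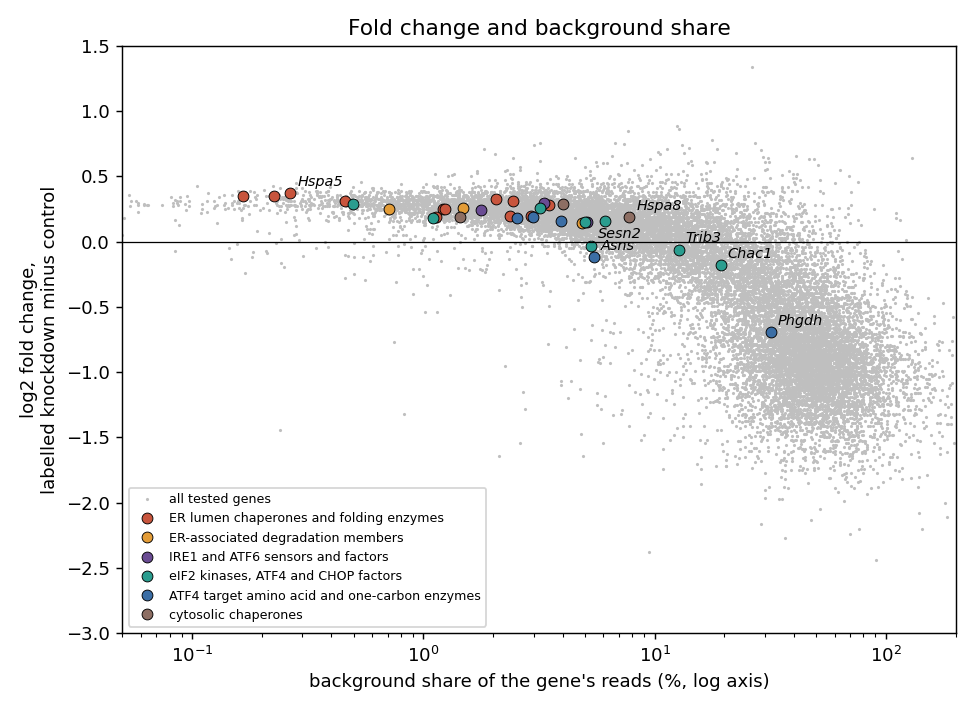
Log2 fold change (libraries labelled knockdown minus control) of every tested gene against its background share in percent on a log axis, with all tested genes as small grey points and the 34 stress response genes coloured by role. The ER chaperones lie within the band of genes with low shares near 0.3, and Phgdh within the cloud of genes above 20%.

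All 12 chaperones and folding enzymes of the ER lumen rose in that fit, and their median log2 fold change was 0.30. All 12 had a background share under 5%, where 75.5% of all genes rose and the median was 0.24, so the count by itself does not set them apart. BiP, which holds unfolded chains and keeps the stress sensors inactive, was counted from Hspa5 at 559, 507, 569.9, 577 and 639 CPM in control replicates 1 to 5. In the libraries labelled knockdown Hspa5 was at 673, 769.8, 753, 722 and 764 CPM, each above every control library. Its log2 fold change was 0.37 (SE 0.06, 95% interval 0.25 to 0.49, adjusted p = 2.1e-06), with lane means of 545 against 732 CPM in lane 7 and 608 against 743 CPM in lane 8. The ER-resident HSP90 paralogue gene Hsp90b1 was at 902, 804, 884, 852 and 947 CPM in the controls. It was at 996, 1135, 1161, 1158 and 1152 CPM in the libraries labelled knockdown, where replicate 1 lay closest to the controls (log2 fold change 0.35, SE 0.06, adjusted p = 3.7e-06). Canx was at 823, 672, 709, 696 and 831 CPM in the controls and at 902, 956, 1019.8, 931 and 941 CPM in the other group (0.35, SE 0.06, adjusted p = 6.3e-06). Again no library of 1 group lay within the other.

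The disulfide isomerase genes followed, Pdia4 going from 192 ± 19.0 to 238 ± 5.09 CPM (log2 fold change 0.31, SE 0.06) and Pdia6 from 116 ± 7.32 to 138 ± 6.31 CPM (0.25, SE 0.06; SD, n = 5 each). Of the J-domain co-chaperones of BiP, Dnajc3, which also restrains PERK, was at 77.2 ± 7.08 and 95.7 ± 4.01 CPM (0.31, SE 0.07) and Dnajb11 at 97.9 ± 5.04 and 117 ± 9.28 CPM (0.25, SE 0.06). For these 4 genes and for the nucleotide exchange factor gene Hyou1 (0.20, SE 0.06) the groups did not overlap. They did overlap for Dnajb9, a co-chaperone that holds IRE1 in check (26.9 ± 4.86 and 32.9 ± 2.11 CPM, 0.28, SE 0.10), and for Creld2 (24.0 ± 3.63 and 30.3 ± 2.66 CPM, 0.33, SE 0.10). In Creld2, a secreted disulfide isomerase-like gene, control replicate 5 at 30.4 CPM stood above the other controls at 21.2 to 23.4 CPM. Sdf2l1, a partner of the BiP cycle, and Manf, a small secreted ER protein, rose least (0.19, SE 0.08, adjusted p = 0.0436, and 0.20, SE 0.08, adjusted p = 0.0276). The call of Sdf2l1 was lost without control replicate 2 (0.15) or 4 (0.18) or knockdown-labelled replicate 3 (0.15), and that of Manf without control replicate 2 (0.17) or knockdown-labelled replicate 3 (0.16).

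**Figure D3:**
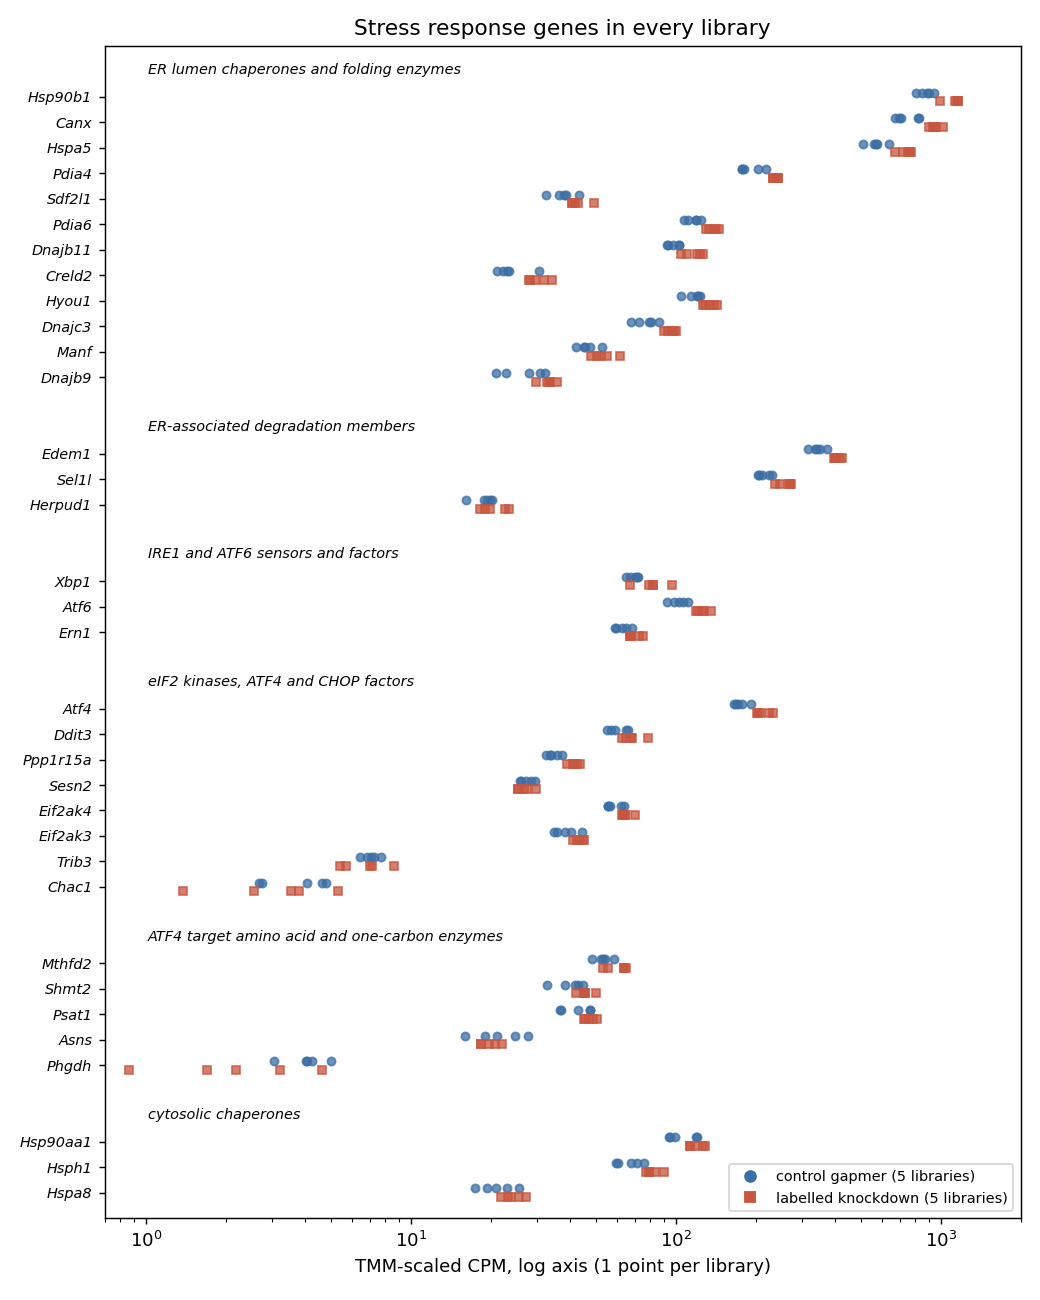
Level of each of the 34 genes in every library, as TMM-scaled CPM on a log axis, grouped by role; circles are the 5 control libraries and squares the 5 labelled knockdown. Hspa5, Hsp90b1 and Canx show separated groups, while the groups overlap for Trib3, Chac1, Sesn2 and Asns.

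ER-associated degradation returns misfolded proteins to the cytosol for the proteasome. Sel1l, the scaffold of its HRD1 ubiquitin ligase, was at 224, 206, 205, 212 and 231 CPM in the controls and at 248, 269, 267, 237 and 272 CPM in the libraries labelled knockdown. The log2 fold change was 0.26 (SE 0.06, adjusted p = 0.000217), and the groups did not overlap. Edem1 was higher by a like amount (343 ± 20.2 against 408 ± 11.2 CPM, SD, n = 5 each, 0.25, SE 0.06), also without overlap. Herpud1, a membrane adaptor of the same ligase whose promoter carries both an ERSE-II and a CARE match, was not called (18.9 ± 1.57 and 20.7 ± 2.24 CPM, 0.14, SE 0.11, adjusted p = 0.286).

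In the IRE1 and ATF6 branches 2 of 3 genes rose. Of the 3, 2 had a background share under 5%, where 75.5% of all genes rose. Atf6 was at 103, 92.9, 98.3, 106 and 111 CPM in the controls and at 126, 136, 121, 119 and 128 CPM in the libraries labelled knockdown. These groups were separate, with a log2 fold change of 0.30 (SE 0.06, adjusted p = 1.0e-04). Xbp1 was at 72.1, 66.9, 64.6, 70.4 and 71.6 CPM in the controls and at 79.2, 82.2, 96.4, 67.4 and 81.8 CPM in the other group. Its log2 fold change was 0.24 (SE 0.07, adjusted p = 0.0041), but knockdown-labelled replicate 4 lay among the controls, and the lane means were 67.9 against 85.9 CPM in lane 7 and 71.0 against 74.6 CPM in lane 8. Ern1 had 62.9 ± 3.85 and 69.9 ± 3.89 CPM (SD, n = 5 each, 0.15, SE 0.07, adjusted p = 0.0544) and was not called. Without any 1 of control replicates 4 or 5 or knockdown-labelled replicates 1, 2 or 4 it passed, at 0.19 in each case.

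In the PERK and ATF4 arm 3 of 8 genes rose. Of the 8, 4 had a background share under 5%, where 75.5% of all genes rose. The others had a share of 5 to 20%, where 15.2% of all genes rose, so the count by itself does not set this arm apart. Atf4 rose, from 178, 169, 172, 166 and 192 CPM in the controls to 207, 225, 232, 205 and 202 CPM in the libraries labelled knockdown, without overlap (log2 fold change 0.29, SE 0.06, adjusted p = 8.1e-05). Ppp1r15a (GADD34), the phosphatase subunit that removes the phosphate from eIF2, rose from 34.5 ± 1.94 to 41.3 ± 1.75 CPM (0.26, SE 0.08), also without overlap. Ddit3, the proapoptotic factor CHOP, was at 66.1, 56.9, 59.1, 55.1 and 64.6 CPM and at 68.6, 62.9, 68.0, 78.2 and 64.9 CPM in the same order. The groups overlapped for Ddit3, and its log2 fold change of 0.18 (SE 0.07, adjusted p = 0.0276) lost its call without control replicate 4 (0.16) or knockdown-labelled replicate 4 (0.15). Neither kinase gene was called: Eif2ak3 had 38.6 ± 3.78 and 43.2 ± 1.74 CPM (0.16, SE 0.08, adjusted p = 0.0827) and Eif2ak4 58.6 ± 3.82 and 64.9 ± 2.96 CPM (0.15, SE 0.07, adjusted p = 0.0704). Both were near the threshold. Eif2ak3 passed without control replicate 5 (0.24) or knockdown-labelled replicate 4 (0.20), and Eif2ak4 without control replicate 1 or 4 (0.18 each), or knockdown-labelled replicate 1, 4 (0.17 each) or 2 (0.19).

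The 3 remaining genes of the arm, known ATF4 targets at low level, were not called. Trib3 was at 7.28, 7.07, 6.44, 6.82 and 7.68 CPM in the controls and at 7.00, 5.69, 5.40, 8.67 and 7.15 CPM in the libraries labelled knockdown (log2 fold change -0.06, SE 0.20, 95% interval -0.46 to 0.34, adjusted p = 0.815). Chac1, with 15 to 25 reads per control library and 8 to 30 per library labelled knockdown, had a wide interval (-0.18, SE 0.29, -0.77 to 0.40, adjusted p = 0.612). At such counts the interval leaves changes in either direction possible. Sesn2, a stress-induced inhibitor of mTORC1 signalling, was better counted, at 27.4 ± 1.58 and 26.9 ± 1.79 CPM (SD, n = 5 each). Its log2 fold change was -0.03 (SE 0.09, 95% interval -0.21 to 0.15, adjusted p = 0.801), and its groups overlapped. Background shares were 12.7% for Trib3, 19.3% for Chac1 and 5.29% for Sesn2.

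Among 5 amino acid and one-carbon enzyme genes that ATF4 is known to drive, 2 rose, 1 fell and 2 were not called. Of the 5, 3 had a background share under 5%, where 75.5% of all genes rose. The mitochondrial folate cycle genes were the 2 rises, Mthfd2 from 53.2 ± 3.65 to 60.3 ± 5.43 CPM (log2 fold change 0.18, SE 0.07, adjusted p = 0.0347) and Shmt2 from 39.9 ± 4.69 to 45.6 ± 2.83 CPM (0.19, SE 0.08, adjusted p = 0.0423; SD, n = 5 each). Both had overlapping groups, and lane 8 held no rise of Mthfd2 (55.4 against 54.5 CPM). The call of Mthfd2 was lost without control replicate 2 (0.16) or 4, or knockdown-labelled replicate 2 or 3 (0.18 each), and that of Shmt2 without control replicate 2 (0.14) or 3 (0.18) or knockdown-labelled replicate 3 (0.17). Of the serine synthesis genes, Psat1 was not called (42.2 ± 5.33 and 47.4 ± 2.22 CPM, 0.16, SE 0.08, adjusted p = 0.0734) but passed without control replicate 3 (0.22) or 5 (0.24) or knockdown-labelled replicate 2 (0.21). Phgdh, the first enzyme of that pathway, fell on 17 to 24 reads per control library and 5 to 26 per library labelled knockdown. It was at 4.01, 4.99, 4.23, 4.06 and 3.04 CPM against 3.21, 0.861, 2.19, 4.60 and 1.70 CPM, so the groups overlapped (-0.69, SE 0.31, adjusted p = 0.0498). Its background share was 31.8%, and leaving out any 1 of control replicates 1 to 4 or knockdown-labelled replicates 2, 3 or 5 ended the call (-0.68, -0.60, -0.67, -0.68, -0.44, -0.63 and -0.55).

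Asns, which makes asparagine and carries a CARE match 23 bases before its start, was not called. It was at 19.1, 24.7, 27.6, 16.0 and 21.1 CPM there and at 22.1, 18.4, 20.8, 19.8 and 18.4 CPM in the libraries labelled knockdown. The libraries labelled knockdown all lay within the control range, and the log2 fold change was -0.12 (SE 0.11, 95% interval -0.35 to 0.10, adjusted p = 0.353). The lanes differed, with means of 23.8 against 20.4 CPM in lane 7 and 18.6 against 19.1 CPM in lane 8.

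Cytosolic chaperones, of which the inducible ones answer to heat shock factor and not to the ER sensors, rose in 2 of 3 cases. Of the 3, 2 had a background share under 5%, where 75.5% of all genes rose. Hsph1 (HSP110), a nucleotide exchange factor for cytosolic HSP70, was at 71.2, 60.7, 76, 59.2 and 67.5 CPM in the controls and at 79.2, 89.9, 79.3, 77.3 and 83.1 CPM in the libraries labelled knockdown, without overlap (log2 fold change 0.29, SE 0.07, adjusted p = 0.000498). Hsp90aa1, the inducible cytosolic HSP90, had overlapping groups at 106 ± 13.2 and 120.1 ± 7.69 CPM (0.19, SE 0.07, adjusted p = 0.0156), and lost its call without control replicate 3 or 4 (0.16 each). Hspa8 was not called (21.2 ± 3.12 and 24.4 ± 2.05 CPM, 0.19, SE 0.10, adjusted p = 0.104; SD, n = 5 each), and passed without control replicate 1 (0.28) or knockdown-labelled replicate 4 (0.25).

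Most of these calls depended on the scaling. When libraries were scaled on the 4728 genes with a background share under 5%, the median over all tested genes moved on the log2 scale from -0.10 to -0.34 and that of the 34 members from 0.20 to -0.05. This scaling centres those 4728 genes (median -0.0017). As 26 of the 34 members are among them, the move of the members' median follows largely from the scaling. With that scaling 3 members rose and 3 fell, against 1.62% of all tested genes that rose and 44.6% that fell. Under a 5% share, 6.32% of all genes rose and 5.46% fell. The 3 rises were the most abundant ER chaperones, Hspa5 (0.12, SE 0.03, adjusted p = 0.00175), Hsp90b1 (0.11, SE 0.03, adjusted p = 0.00479) and Canx (0.10, SE 0.03, adjusted p = 0.00704). The 3 falls were Asns (-0.37, SE 0.12, adjusted p = 0.0117), Sesn2 (-0.27, SE 0.09, adjusted p = 0.0145) and Phgdh (-0.93, SE 0.34, adjusted p = 0.0215). Asns and Sesn2 belong to the genes with a share of 5 to 20%, of which 0.218% rose and 26.1% fell with this scaling. When the predicted background reads were also subtracted, in the 10234 genes with a share under 20%, 1 of 33 members rose and 0 fell, with 0.850% and 4.16% of all genes. The 1 was Hspa5 (0.10, SE 0.03, adjusted p = 0.0414), while Hsp90b1 (0.08, adjusted p = 0.0998), Canx (0.08, adjusted p = 0.115), Asns (-0.35, adjusted p = 0.076) and Sesn2 (-0.25, adjusted p = 0.121) no longer passed.

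Other settings moved the balance as well. Upper-quartile scaling gave 10 rises and 1 fall among the members, with 1685 rises and 7195 falls among all tested genes. Library totals gave 4 and 3, with 759 and 7888 among all tested genes, against 4418 and 6033 with TMM. Hspa5, Hsp90b1, Canx and Pdia4 were the 4 that rose with library totals (0.16, 0.15, 0.14 and 0.10), and Sesn2 (-0.23), Asns (-0.33) and Phgdh (-0.89) the 3 that fell. Lane 7 alone, with 3 libraries against 3, gave 19 rises and 1 fall (20.7% and 28.9% of all genes). Lane 8 alone, with 2 against 2, gave 0 and 0 (0.328% and 0.749% of all genes) at a like median for the members, 0.28 in lane 7 and 0.20 in lane 8. With the background density as a covariate 0 members passed, as did 0.0208% of all genes upwards and 0.0831% downwards. Since the density by itself separated the groups, this fit cannot tell the label from the density.

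**Figure D4:**
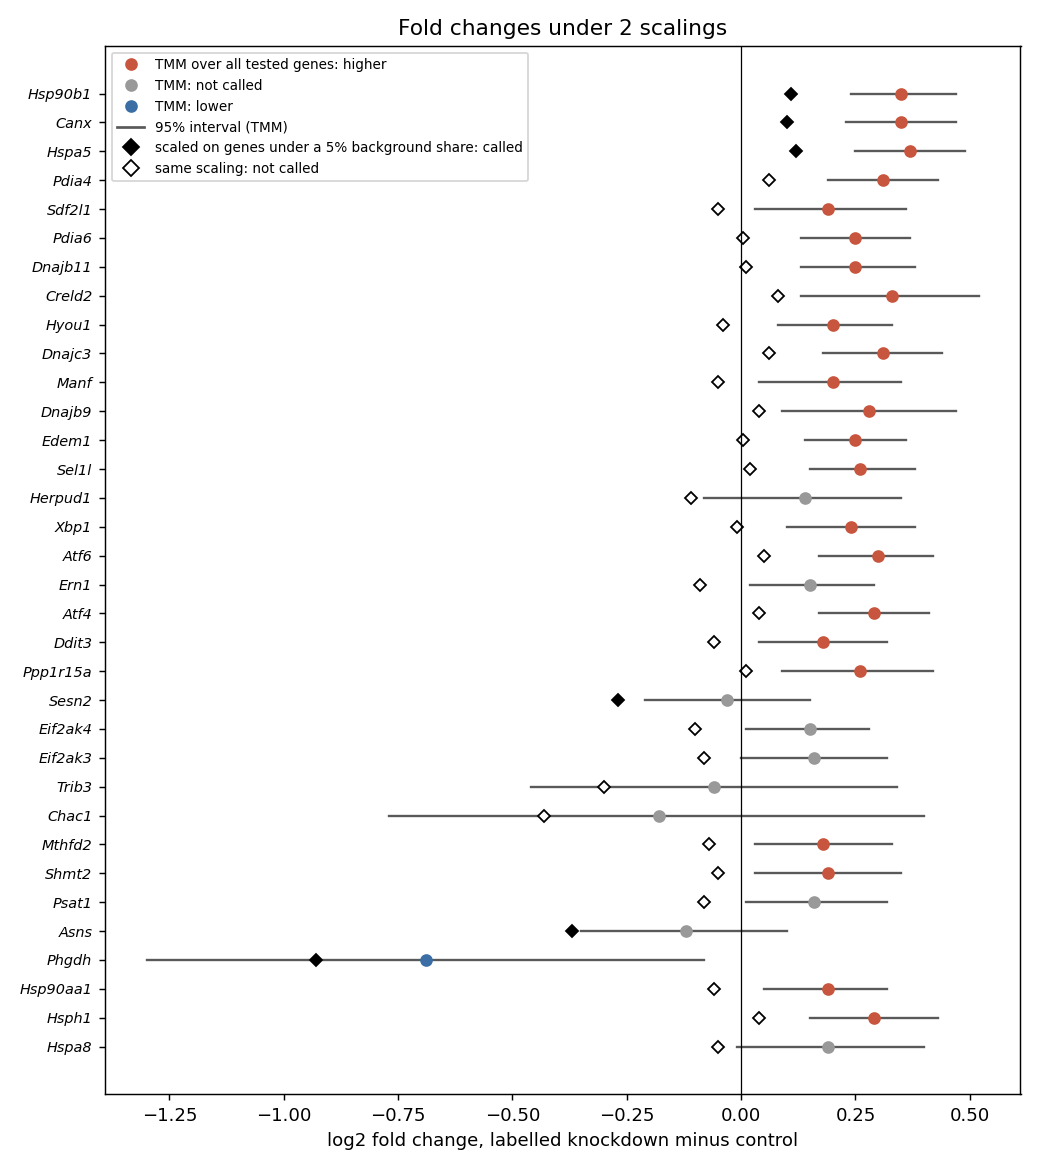
Log2 fold change of each of the 34 genes, libraries labelled knockdown minus control: circles with 95% intervals use TMM scaling over all tested genes, and diamonds use scaling on genes under a 5% background share, filled where called. All diamonds lie to the left of their circles, and the filled ones are Hsp90b1, Canx and Hspa5 above 0 and Sesn2, Asns and Phgdh below 0.

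Ratios of reads within a library need no scaling, but background reads still enter them. The PERK and ATF4 arm and its enzymes had median background shares of 5.14% and 3.92%. The ER chaperones and the degradation genes had 1.23% and 1.49%. The 13 genes of the PERK and ATF4 arm and of its enzymes held 0.159, 0.167, 0.165, 0.162 and 0.156 reads per read of the 15 ER chaperone and degradation genes in control replicates 1 to 5. In the libraries labelled knockdown the ratio was 0.158, 0.145, 0.147, 0.148 and 0.140. It was lower in 4 of these 5 libraries than in every control, while knockdown-labelled replicate 1 lay among the controls. The means were 0.162 ± 0.00446 and 0.148 ± 0.00656 (SD, n = 5 each), or 0.156 ± 0.00318 and 0.145 ± 0.00619 after background reads had been subtracted. Asns per read of Atf4 was 0.124 ± 0.0278 and 0.0931 ± 0.00927, with overlapping groups. The reads of the ER chaperone and degradation genes per read of the cytosolic chaperones overlapped as well (18.2 ± 1.11 and 19.3 ± 0.459). So did Ddit3 per read of Atf4 (0.344 ± 0.0161 and 0.321 ± 0.0398). These sums were formed over the listed genes, so the genes with the most reads weigh most in them. Of the ER genes these were Hsp90b1, Canx and Hspa5 (4953, 4518 and 3072 reads in control replicate 1). In the PERK and ATF4 arm it was Atf4 (977 reads in the same library). The ratios are descriptions without a test.

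**Figure D5:**
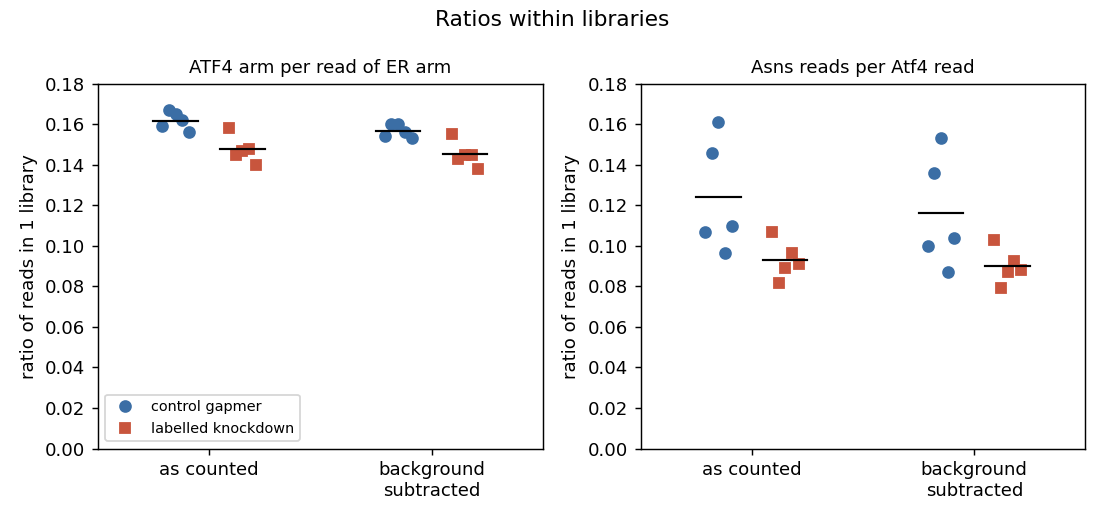
Reads of the PERK and ATF4 arm per read of the ER chaperone and degradation genes (left) and reads of Asns per read of Atf4 (right) in each library, as counted and after subtraction of background reads; circles are the 5 control libraries, squares the 5 labelled knockdown and lines the means. On the left 4 of the 5 squares lie below all circles, and on the right the groups overlap.

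Beyond the members, 134 other genes of these pathways were read from the same fit. Of 130 tested 67 rose, 12 fell and 51 were not called, with a median log2 fold change of 0.20. Among all tested genes 22.9% rose and 31.3% fell. Under a background share of 5%, 58 of 72 rose and 0 fell (75.5% and 0.486% of all such genes). Of the 12 that fell 9 were below 10 CPM in the controls, and their background shares ran from 6.74 to 72.4%. Genes for ER entry, folding and oxidation rose in 17 of 20 cases, among them the lectin chaperone Calr (1227 ± 72.6 to 1523 ± 67.7 CPM, SD, n = 5 each, 0.31), its partner isomerase Pdia3 (0.33), the translocon gene Ssr1 (0.33) and the folding sensor Uggt1 (0.30). Of 18 degradation genes 10 rose and 0 fell, those with the smallest p-values being the mannosidase gene Edem3 (0.37), the lectin genes Erlec1 (0.41) and Os9 (0.31) and Ufd1 (0.39), a cofactor of the p97 segregase. The heat shock list, which held cytosolic and some mitochondrial genes, had 10 rises and 0 falls among 19 tested. They included Hsp90ab1 (0.28), Hspa4 (0.31), Bag3 (0.32) and the mitochondrial Hspa9 (0.36). In these lists 14 of the 20, 14 of the 18 and 10 of the 19 genes had a background share under 5%, where 75.5% of all genes rose.

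Of 17 genes in ATF6, OASIS and IRE1 signalling 6 rose and 3 fell, beside 22.9% and 31.3% of all tested genes, and 7 of the 17 had a background share under 5%, where 75.5% of all genes rose. The ATF6 paralogue gene Atf6b (0.33) and the ER membrane gene Tmbim6 (0.26) rose. Creb3l2, an ER-anchored transcription factor gene of the OASIS family, fell from 49.7 ± 5.73 to 39.9 ± 2.86 CPM (SD, n = 5 each, log2 fold change -0.32, SE 0.08, adjusted p = 0.00089), without overlap and at a background share of 6.74%. Its fall was -0.56 with scaling on genes under a 5% share and -0.54 after background subtraction (adjusted p = 1.9e-06), -0.35 in lane 8 alone, where it was not called. It was also not called with the background density as a covariate (-0.27) or with no filter on low counts (-0.19). The other 2 falls were Ern2 (-1.17) and Creb3l4 (-0.89), both under 5 CPM and with shares of 37.5% and 31.7%.

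Of 16 genes around eIF2 itself 7 rose and 1 fell, and 9 of the 16 had a background share under 5%. The counts of this list and the next 2 stand beside 22.9% of all tested genes that rose and 31.3% that fell, and 75.5% that rose under a 5% share. Eif2s1, which encodes the phosphorylated subunit, rose by 0.36, the kinase PKR (Eif2ak2) by 0.28 and the phosphatase subunits Ppp1r15b and Ppp1ca by 0.28 and 0.25. Eif2b3, a subunit of the exchange factor that phosphorylated eIF2 blocks, was the 1 that fell (-0.28, share 15.3%). Among ATF4 target factors 7 of 15 tested rose and 3 fell (7 under a 5% share), with Atf3 (0.30), Bcl2l11 (0.32) and Nfe2l2 (0.29) up and the secreted glycoprotein gene Stc2 (-1.24, share 43.8%), Vldlr (-0.83, share 72.4%) and Tnfrsf10b (-0.54, share 40.1%) down. Among amino acid transporters, synthesis and tRNA charging genes 10 of 25 tested rose and 5 fell (11 under a 5% share). The tRNA synthetase genes Nars (0.34) and Gars (0.31) and the transporter chain Slc3a2 (0.33) rose. The glycine transporter gene Slc6a9 (-1.23, share 31.9%), Shmt1 (-0.38), Pycr1 (-0.81), Cth (-1.66) and Cbs (-1.11) fell, with shares of 14.5 to 64.8%. The 4 pathway genes that were not tested, Ddit4, Fgf21, Slc7a3 and Hspb1, had at most 2.23 CPM in either group.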

How the data were processed

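Total RNA gave 10 libraries, made with a strand-marking SMARTer Pico total RNA kit, per the labels' protocols. Each library has 1 deposited file of raw read counts, whole numbers without normalization. Per the submitters' processing notes, bcl2fastq was used and the genome build was GRCm38, also called mm10. For the aligner, counting program and strand setting the sources used here give nothing, and overlapping and antisense genes cannot be told apart. Of 55563 entries, 92 ERCC spike-ins (0 to 2 reads per library) were left out. Symbols, coordinates and union exon lengths came from GENCODE M21 (55230 of 55471 genes matched), and Ddit3 was the longer of its 2 models. Replicates 1 to 3 of each group were on lane 7 and 4 and 5 on lane 8, per the deposited file names. Any 2 libraries of a group differed by more than sampling of reads gives (chi-square divided by its degrees of freedom, 1.76 to 4.48).

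Counts were filtered with filterByExpr, scaled with TMM and tested with edgeR 4.0.16 (robust quasi-likelihood test, group only, R 4.3.3), with Benjamini-Hochberg adjustment over 19263 genes and a threshold of 0.05. SEs were derived from the F statistic. Background reads were the olfactory receptor density times exon length. Alternatives used DESeq2 1.42.0, limma 3.58.1 (voom), other scalings, filters and subsets. Figures used Python 3.11.15 and matplotlib 3.10.9. Promoter windows came from RefSeq (GRCm38.p6). Named genes were all 34 members, the 4 smallest p-values per pathway list and any count of 5 or fewer. Members, lists, tests and the background measure were chosen with earlier results of these data known, and the promoters shown and the check for repeated 50-base stretches after values were seen.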

Additional observations from a re-analysis of the deposited data

Results flagged for a closer look

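Among 124 groups of 5 libraries examined, 4 held a library set apart from the other 4 by more than 0.71 of the group's whole range, where chance alone gives about 1 in 20. Hsp90b1 was at 996 CPM in knockdown-labelled replicate 1, below the other libraries labelled knockdown at 1135 to 1161 CPM and above all controls. Sdf2l1 was at 49.3 CPM in knockdown-labelled replicate 3, above the others at 40.5 to 42.7 CPM, and the gene lost its call without that library. Creld2 was at 30.4 CPM in control replicate 5, above the other controls at 21.2 to 23.4 CPM. Eif2ak4 was at 70.0 CPM in knockdown-labelled replicate 3, above the others at 62.9 to 64.4 CPM.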

How the results depend on the processing

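The counts depended mostly on scaling and background, and the cause was not tested. Higher and lower calls were 4418 and 6033 among all tested genes, 23 and 1 among the members and 67 and 12 among the other pathway genes. Rises of all genes, members and other pathway genes numbered 1685, 10 and 31 under upper-quartile scaling, 759, 4 and 17 by library totals, 312, 3 and 5 when scaled to genes below a 5% background share, 87, 1 and 0 after background subtraction, 4, 0 and 0 with the density as covariate, 2057, 12 and 35 with at least 5 CPM in 5 libraries, and 67, 0 and 0 in lane 8. Falls numbered 426, 0 and 3 after subtraction, 16, 0 and 0 with the covariate, and 153, 0 and 0 in lane 8. The 5 CPM filter left 12005 genes to test, where the main fit had 19263, and 17.1% of the 12005 rose. Subtraction was fitted on 10234 genes and lane 8 on 20424. With the 5 CPM filter 2239 of all genes and 0 members fell. Members that fell numbered 3 with library totals and 3 with scaling on genes under a 5% share (other pathway genes 26). Falls among all tested genes then numbered 7888 and 8589. With DESeq2, with no filter, at an adjusted p under 0.01 and with lane as covariate 0 members fell, and other pathway genes that fell numbered 7 with DESeq2 and 7 at that threshold. Falls among all tested genes in these settings, in the same order, numbered 5055, 7282 (of 48620), 4096 and 5905. Leaving out 1 library gave 19 to 26 rises and 0 to 1 falls among the members, and 60 to 77 rises and 7 to 12 falls among the other pathway genes. All tested genes gave 4032 to 5015 rises and 4928 to 6967 falls in these fits. Under a 5% share 69.9 to 81.9% of all genes rose.

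Some called log2 fold changes changed sign. With library totals these were -0.00054 for Hyou1, -0.01 for Sdf2l1, Manf and Shmt2, -0.02 for Ddit3 and Hsp90aa1 and -0.03 for Mthfd2. With scaling on genes under a 5% share they were -0.01 for Xbp1, -0.04 for Hyou1, -0.05 for Sdf2l1, Manf and Shmt2, -0.06 for Ddit3 and Hsp90aa1 and -0.07 for Mthfd2. After subtraction they were -0.01 for Pdia6, Dnajb11 and Tmbim6, -0.02 for Edem1, Xbp1 and Ppp1ca, -0.04 for Hyou1 and Manf, -0.05 for Shmt2, -0.06 for Mthfd2, -0.07 for Sdf2l1 and Hsp90aa1 and -0.08 for Ddit3. With the density as covariate they were -0.03 for Hsp90aa1, -0.05 for Mthfd2, -0.07 for Sdf2l1, -0.09 for Manf, -0.12 for Shmt2, -0.14 for Dnajb9 and 0.24 for Phgdh. These last values come from a fit that cannot tell the label from the density. In lane 8 Mthfd2 was at -0.0027. The cause was not tested for any of them.

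With a replicate block 23 members rose and 1 fell, and the calls of all 34 were unchanged. All tested genes then gave 4405 rises and 5949 falls, and other pathway genes 67 and 11. Same-numbered libraries correlated at -0.10, -0.21, 0.01, 0.15 and 0.16 in their deviations from the group means, not every library correlated best with its own number, and the labels name no shared source, so they share only a number. Depth limits Chac1 and Phgdh most, with at most 30 and 26 reads in any library.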
